A study of Mus musculus with 2 samples.

Results

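The genes described here are 10 immediate early transcription factors, Fos, Fosb, Fosl2, Jun, Junb, Jund, Egr1, Ier2, Atf3 and Nr4a1. They were chosen by name from 32285 mouse genes counted in 1 single-cell RNA library, and all 10 were counted there. The library held cells sorted as osteal macrophages (Omacs) from the femurs and vertebrae of female BALB/c mice. The mice were 10 weeks old at surgery and were either ovariectomized (OVX), which lowers estrogen, or sham operated, and cells were taken 4 weeks later. Cells of many mice were pooled within each condition and marked with a hashtag antibody, hashtag 1 for OVX and hashtag 2 for sham. There was thus 1 pool per condition, no test between OVX and sham was possible, and every interval below is a 95% interval for counting error only.

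Immediate early genes are transcribed within minutes of a stimulus from factors already present in the cell, without new protein synthesis, and their mRNAs are short-lived. FOS proteins pair with JUN proteins through a leucine zipper to form the AP-1 transcription factor, and ATF3 belongs to the same bZIP superfamily. EGR1 is a zinc finger factor and NR4A1 an orphan nuclear receptor of the same early response. In myeloid cells these genes respond to cytokines, adhesion and microbial products, and they also respond to enzymatic digestion of tissue. The bones here were cut, treated with trypsin and then with collagenase overnight at 37 °C, in the same way for both conditions, so the levels are those of cells after digestion and sorting.

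Upstream sequences of 4 members are shown because each holds letters that resemble the cyclic AMP response element or an AP-1 site, elements that are known to take part in early gene induction. RefSeq promoter sequences (GRCm38.p6) were matched by symbol for 8 of the 10 members, and Egr1 and Ier2 had no entry. The 250 bases before each start site were searched on both strands for TGACGT, for TGACGCA and for TGACATCA, letters chosen with these sequences known. TGACGT was found before Fos and Atf3 and in 6.47% of 32851 promoters. TGACGCA was found before Fosb and Nr4a1 and in 1.75% of promoters, and TGACATCA before Jun and in 2.93%. The full palindrome TGACGTCA, which contains TGACGT, was in 1.55% of promoters and before none of the 8 members. The AP-1 site TGAGTCA or TGACTCA was in 4.46% and the CArG box in 1.47%, also in none of the 8. The stretches below read 5′ to 3′ on the strand of the gene, with the matched letters in capitals. They lie at chr12:85473788-85473865 (+ strand, Fos), chr7:19310063-19310141 (− strand, Fosb), chr4:95052224-95052303 (− strand, Jun) and chr15:101266768-101266845 (+ strand, Nr4a1), and no GENCODE M21 exon overlaps them.
Fos: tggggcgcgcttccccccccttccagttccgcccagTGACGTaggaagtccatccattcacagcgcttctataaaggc
Fosb: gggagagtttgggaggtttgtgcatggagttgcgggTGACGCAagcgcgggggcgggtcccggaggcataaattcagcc
Jun: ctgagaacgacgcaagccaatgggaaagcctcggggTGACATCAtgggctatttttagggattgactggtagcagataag
Nr4a1: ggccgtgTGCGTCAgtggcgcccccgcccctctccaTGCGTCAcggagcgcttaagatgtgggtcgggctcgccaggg
The matches began 66 bases before the start site in Fos, 60 in Fosb and 45 in Jun. In Nr4a1 the nearest match began 42 bases before the start site, and its 250 bases held 4 matches, of which 2 are in the stretch shown. A match describes letters and says nothing of binding.

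The library held 2349 cell barcodes with 17681092 UMIs, from 500 to 141565 per barcode, and 1059 barcodes were assigned to OVX, 981 to sham, 78 to both hashtags and 231 to neither. The labels give 1037 OVX and 1084 sham cells as loaded. The label macrophage was not borne out by the markers in most cells. Of 28 macrophage markers, 3 reached 100 CPM (UMIs of the gene per 1000000 UMIs) in the 1890 neutrophil-like cells, where Adgre1, which encodes F4/80, stood at 1.56 to 3.14 CPM over their clusters and C1qa had no UMI, while S100a8, which encodes a subunit of the abundant neutrophil protein calprotectin, stood at 80551 to 123553 CPM. Clusters were made without the 10 genes and are named by leading genes: Retnlg (811 cells), Stfa2 (449) and Jaml (630), which were neutrophil-like, 131 cycling-like cells with neutrophil granule genes, 209 stromal-like cells led by Prg4 and Dcn, and 119 cells with genes of several lineages led by Pf4, left unnamed. In those mixed cells 11 of the 28 macrophage markers reached 100 CPM, and Adgre1 stood at 63.3 CPM. All 28 summed to 13989 CPM there and to 12662 CPM in stromal-like cells, where 5 reached 100 CPM. The clusters split unevenly by condition. The Stfa2 cluster took 34.6% of OVX and 5.91% of sham cells, the Retnlg cluster 21.3% and 49.2%, the Jaml cluster 31.1% and 27.6%, and the cycling-like cells 6.04% and 5.40%.

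The JUN family gave the highest counts. UMIs from transcript ends are not divided by gene length, so CPM order genes by captured transcripts. Over all cells Junb, a bZIP factor that pairs with FOS proteins, stood at 549 CPM (538 to 560) and Jun at 315.5 (307 to 324). Jund, the family member with the steadiest basal expression, stood at 181 (174.5 to 187).
Junb ranged from 252 CPM in cycling-like cells through 466 in the Retnlg cluster, 529 in stromal-like cells and 682 in the Stfa2 cluster to 949 in the Jaml cluster. Only the mixed Pf4 cells (285.5 CPM) and the cycling-like cells had overlapping intervals among neighbours in this order. Jun ran from 177 CPM in stromal-like cells to 659 in the Jaml cluster, where its interval (624 to 696) lay above that of every other cluster. Jund had another order. It was highest in the Stfa2 cluster at 274 CPM, followed by cycling-like cells (236), the Retnlg cluster (211) and the Jaml cluster (202). Each of these overlapped the next, and Jund was lowest in stromal-like cells at 84.5. Of the 449 Stfa2 cells, 188 belonged to a Gm42418-led group described below, in which Jund stood at 739 CPM. In a split into 8 clusters that sets this group apart, a Retnla and Stfa2 cluster of 283 cells had Jund at 139 CPM.

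Among the FOS family, Fosl2, which lacks the strong activation domain of FOS, was the most abundant at 157 CPM over all cells. It stood at 342 CPM (317 to 369) in the Jaml cluster, at 207 in the Stfa2 and 203 in the Retnlg cluster, whose intervals overlapped, at 157 in the mixed cells, and at 59.6 in cycling-like and 51.0 in stromal-like cells. Fos itself was at 103 CPM over all cells. Its highest values, 169.5 CPM in the mixed cells, 149 in the Jaml cluster and 142 in the Retnlg cluster, each overlapped the next, and the Stfa2 cluster (91.6), cycling-like cells (82.9) and stromal-like cells (54.3) were lower. Fosb was scarce, with 266 UMIs in all. It ran from 6.76 CPM in stromal-like cells to 25.7 in the Stfa2 cluster, with every neighbour overlapping.

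Egr1 stood at 211 CPM (191 to 232.5) in the Jaml cluster, at 120 in the Stfa2 cluster and at 88.0 in the Retnlg cluster, and its lowest level, 42.9 CPM, was in the mixed cells. Ier2, which encodes a nuclear factor induced with FOS, varied least, from 75.0 CPM in the mixed cells to 121 in the Retnlg cluster, a 1.62-fold range. Atf3, a bZIP factor best known as a stress-induced repressor of inflammatory genes, stood at 63.8 CPM (53.2 to 76.0) in the Jaml cluster, at 39.2 in the Stfa2 and 37.1 in the Retnlg cluster, and at 21.4 in cycling-like cells. Nr4a1 had 53 UMIs in the library, or 2.998 CPM, with 1 UMI among the 630 cells of the Jaml cluster, and no comparison of its levels was possible at this depth. After thinning to 1000 UMIs, the share of neutrophil-like cells with a UMI was 46.8% for Junb, 31.3% for Jun, 23.8% for Fosl2, 19.8% for Jund, 13.1% for Fos, 11.5% for Egr1 and 11.45% for Ier2. Atf3 (4.50%), Fosb (2.05%) and Nr4a1 (0.228%) lay below Dcn, the stromal gene, at 9.92% of the same cells and 95.4% of stromal-like cells. Dcn stood at 16524 CPM in stromal-like cells, so its share sets no floor for genes as scarce there as these 3. Whether a single UMI of these 3 marks an expressing cell was not tested.

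**Figure D1:**
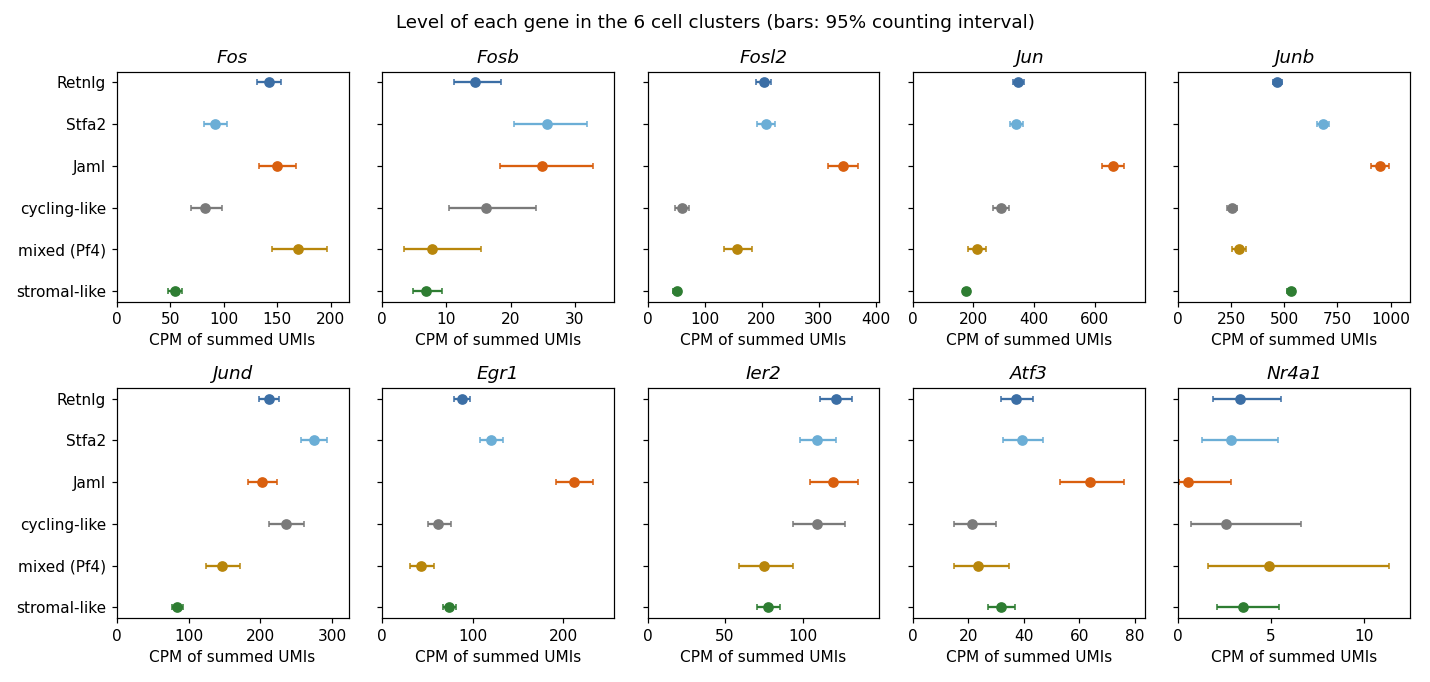
Level of each of the 10 genes in 6 cell clusters, as CPM of summed UMIs (horizontal axis, own scale from 0 in each panel), with points for clusters and bars for the 95% counting interval. With conditions pooled, the Jaml cluster was highest for Fosl2, Jun, Junb, Egr1 and Atf3, for Atf3 among sham but not among OVX cells. The Stfa2 cluster, where 188 of 449 cells were Gm42418-led, was highest for Jund. Stromal-like cells were lowest for Fos, Fosl2, Jun and Jund.

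The leading genes of the Jaml cluster also include Clec4n, Mefv and Acod1. With conditions pooled, this cluster carried the highest levels of 5 of the 9 members other than Nr4a1. For Atf3 this rank held among sham cells, at 122 CPM. Among OVX cells Atf3 stood at 29.2 CPM there and at 41.7 CPM in the Stfa2 cluster, with overlapping intervals. Against the other neutrophil-like cells, Egr1 was 2.08-fold higher (1.85 to 2.35), Jun 1.91-fold (1.79 to 2.04), Junb 1.71-fold (1.62 to 1.80), Atf3 1.68-fold (1.35 to 2.08) and Fosl2 1.67-fold (1.53 to 1.83). Fos was at 1.23-fold, Fosb at 1.29-fold with an interval reaching below 1 (0.917), Ier2 at 1.03-fold and Jund at 0.849-fold (0.759 to 0.946). Of 6469 genes compared, 20.6% were 1.5-fold or more higher in the Jaml cluster and 14.4% lower, against 5 and 0 of the 9 members. The median log2 ratio was 0.74 over the members and 0.17 over all genes compared. With 1000 variable genes in place of 2000 for the clustering, none of the 5 reached 1.5-fold, with log2 ratios from 0.24 (Atf3) to 0.56 (Fosl2).
In cells thinned to 1000 UMIs each, a Junb UMI was found in 55.5% of 568 Jaml cells and 40.0% of 772 Retnlg cells, and a Jun UMI in 43.8% and 25.5%. Dcn, a stromal gene that neutrophils should lack, was found in 10.4% and 8.16% of the same cells, at median depths before thinning of 2652 and 4835 UMIs. In 415 thinned Stfa2 cells the Junb share was 47.5% (42.6 to 52.4), which overlaps the Jaml share (51.3 to 59.6). The Jun share there was 24.8%. In 206 thinned cells of the Gm42418-led group, described below, the shares were 64.1% for Junb and 27.2% for Jun.

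Other genes of the early response were high in the same cluster. Of 18 other immediate early genes compared, 10 were 1.5-fold or more higher and 2 lower in the Jaml cluster, with a median log2 ratio of 0.69. They include Btg1, an antiproliferative factor, at 4315 against 1895 CPM, and Ier3, a survival factor, at 1983 against 839 CPM. The lower members of that list included Egr3, at 8.10 against 21.0 CPM. The NF-kB early response was the list with the highest median, 1.21, and 12 of its 14 genes were higher and 0 lower, among them Il1b (3.61-fold), Ccl4 (3.62-fold) and Cxcl2 (2.36-fold). Feedback genes that limit MAPK signalling or destabilise early mRNAs were higher in 5 of 10, with Zfp36l2 at 2.46-fold and Dusp1 at 1.98-fold. Of 7 other bZIP partners 2 were higher and 0 lower, of 15 upstream kinases and factors 5 were higher and 2 lower, and of 9 AP-1 target genes 3 were higher and 0 lower. Of 13 heat shock genes 1 was higher and 1 lower, with a median log2 ratio of 0.10.

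Splitting the cells further, into 8 clusters, gave stages that were ordered by Camp, a granule gene transcribed early in neutrophil maturation. The split was chosen after seeing the data, and a Gm42418-led cluster described below is left out of the order. Camp stood at 4743 CPM in cycling-like cells, 2120 in a cluster of 450 cells led by Ifitm6, 135 in a Retnla and Stfa2 cluster of 283 cells, 62.7 in a Retnlg cluster of 279 cells and 21.4 in the Jaml cluster.
Along that order Junb was at 254, 422, 476, 540 and 919 CPM, and Egr1 at 63.5, 85.5, 92.2, 97.3 and 206 CPM. Over these 5 clusters both were ordered opposite to Camp, although the 3 middle values of Egr1 had overlapping intervals. Junb intervals also overlapped between the Retnla and Stfa2 cluster (450.5 to 503.5) and the Retnlg cluster (501.4 to 580.3). The Gm42418-led cluster broke this order, with Camp at 220 CPM, Junb at 1349 CPM and Egr1 at 203 CPM. Fosl2 was at 59.7, 186.5, 185, 246 and 332 CPM, and Atf3 at 22.4, 34.9, 48.7, 42.0 and 61.7 CPM. Neither rose at every step. In the split into 6 clusters, Atf3 in the Jaml cluster stood at 122 CPM in sham but 29.2 CPM in OVX cells. In the Stfa2 cluster of that split, 1 OVX cell held 46 Atf3 UMIs.
Fos and Jund did not follow this order. Fos was at 79.6, 178, 84.3, 84.1 and 154 CPM, so that its highest stage was the Ifitm6 cluster (163 to 195), which overlapped the Jaml cluster. Jund was at 234, 241.5, 139, 132 and 184 CPM, high in both early stages. Median UMIs per cell also differed along the order, at 10619, 5313, 7371, 4239 and 2664, and their part in it was not tested. Conditions were pooled here and mixed unevenly. The Ifitm6 cluster held 110 OVX and 270 sham cells, and the Retnla and Stfa2 cluster 241 and 30. The part of condition in the order was not tested.

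Stromal-like cells, led by the lubricin gene Prg4, had lower levels than neutrophil-like cells for 7 of 9 members at 1.5-fold or more, and 0 members were higher. Fosl2 stood at 51.0 against 233 CPM, a ratio of 0.219 (0.193 to 0.248), and Fos at 54.3 against 127 CPM. Jund stood at 84.5 against 230 CPM and Jun at 177 against 409 CPM. Junb and Atf3 were lower by less than 1.5-fold. Junb stood at 529 against 636 CPM, a ratio of 0.832 (0.796 to 0.870). Atf3 stood at 31.6 against 43.3 CPM, a ratio of 0.731 (0.609 to 0.875). The median log2 ratio over the members was -1.21. Over 9598 genes compared it was 1.098, with 57.5% of genes higher and 25.2% lower in stromal-like cells, whose median depth was 20087 UMIs.
The heat shock list lay the other way, with 15 of 15 genes higher in stromal-like cells and a median log2 ratio of 4.78, as for Hsp90ab1, a cytosolic chaperone, at 3557 against 196 CPM. Of 21 other immediate early genes 10 were higher and 7 lower: Klf4 stood at 421 against 5.81 CPM, and Egr2 at 5.12 against 56.1 CPM. As a measure of transcripts carried over between cells, 5 neutrophil genes stood in stromal-like barcodes at a median of 0.947% of their neutrophil-like level, with Lcn2 at 53.4%, and the source of these transcripts was not tested. The 9 members other than Nr4a1 stood there at 21.9% to 83.2% of their neutrophil-like level. Nr4a1, too scarce to compare, was at 134%, a ratio whose interval (0.697 to 2.53) spanned 1.

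One group of neutrophil-like cells stood apart for Jund and Junb. It was led by Gm42418, a locus that overlaps ribosomal RNA sequence, and held 261 cells in the 8-cluster split, of which 259 were neutrophil-like. Jund stood at 739 CPM there against 181 CPM in the other neutrophil-like cells, 4.08-fold (3.72 to 4.48), and Junb at 1364 against 566 CPM, 2.41-fold (2.26 to 2.57). Fosb was 1.87-fold higher, Egr1 1.77-fold, Ier2 1.34-fold and Fosl2 1.32-fold. Jun was level at 408 against 410 CPM, Fos stood at 0.872-fold with an interval spanning 1, and Atf3 was lower, at 12.97 against 46.2 CPM.
Some feedback and early genes, chosen after their values were seen, stood with Jund. Dusp5 was 3.18-fold higher, Klf2, a quiescence factor of leukocytes, 2.90-fold, Dusp6 2.74-fold and Dusp1 2.14-fold. The feedback gene Zfp36 was 1.40-fold higher, and the share of all genes higher in this group was not counted. These cells had a median of 2380 UMIs, Gm42418 took 178781 CPM against 17579 elsewhere, and Lars2 was at 1601 against 442 CPM. Neat1, a nuclear RNA, was at 1015 against 738 CPM and Malat1 at 29312 against 35335 CPM, and the mitochondrial share was 0.656%, beside 0.536% over all neutrophil-like cells. The part of RNA quality in these differences was not tested. The group held 14.1% of OVX and 9.07% of sham cells.
Within it Egr1 differed most between conditions, at 243 CPM in 149 OVX cells (148 UMIs) and 73.9 CPM in 89 sham cells (12 UMIs), 3.29-fold (1.83 to 6.51). Fosl2 stood at 320 against 191 CPM and Junb at 1457 against 997 CPM, while Jund stood at 719 against 794 CPM, with a ratio of 0.906 (0.743 to 1.11). Median depth was 3071 UMIs in those OVX cells and 1279 in those sham cells, and its part in these ratios was not tested.

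**Figure D2:**
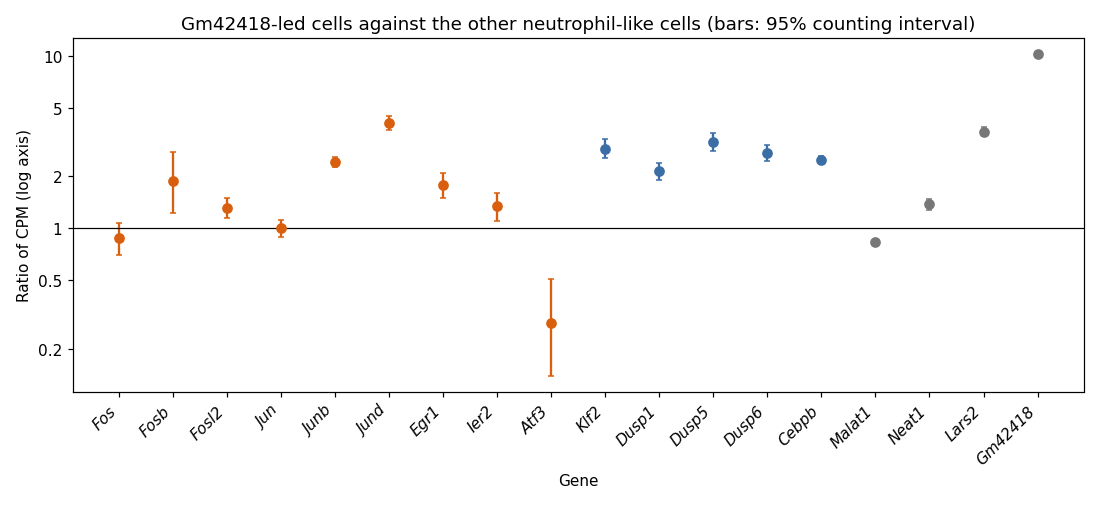
Ratio of CPM between 259 Gm42418-led cells and the other neutrophil-like cells (vertical log axis), with members in orange, other early, feedback and bZIP genes in blue, and nuclear or ribosomal-type transcripts in grey, and bars for the 95% counting interval. Jund and Junb lie above 2, Jun lies at 1, and Atf3 is the member below 0.5.

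In 1755 neutrophil-like cells thinned to 1000 UMIs, 1 member was found in the median cell, none in 19.5% and 5 or more in 2.34%. Of 23 member pairs with 20 or more cells expected in common, 22 were found together more often than the product of their shares, with a median ratio of 1.18. These cells pool clusters with different member levels, which by itself raises such ratios, and pairs of other genes were not compared. The pair with the highest of these 23 ratios was Jund and Ier2, found together in 59 cells where 39.9 were expected, and the lowest ratio was 0.986. In the Jaml cluster 12.9% of cells had no member, against 22.7% in the Retnlg cluster and 40.1% of stromal-like cells.
Over the 12 combinations of cluster and condition, the genes outside the fixed lists with the pattern most like Fos were Lyz2 (Pearson r 0.97), Osm (0.96) and Adam8 (0.93), among 2906 genes compared. For Junb they were Trib1 (0.94), Gm12840 (0.91) and Tspan13 (0.91), and for Jund Lbr (0.94), Capn1 (0.94) and Phf20l1 (0.93). These points come from 1 library and share its depth.

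Between OVX and sham, most members differed by less than 1.5-fold. Over all OVX and sham cells together 9 members had 50 UMIs or more. Of these 1 was 1.5-fold or more higher in OVX and 0 lower, where 5.19% and 23.9% of 9411 genes were. Fosb was the higher one, at 21.9 CPM in OVX and 9.13 in sham (2.40-fold, 1.78 to 3.29). Egr1 was at 120 against 81.7 CPM, 1.47-fold (1.32 to 1.64), Junb at 610 against 475 CPM, 1.28-fold (1.23 to 1.34), and Atf3 at 31.9 against 45.03 CPM, 0.709-fold (0.596 to 0.843). A single OVX cell held 46 of its 249 Atf3 UMIs. The Atf3 ratio was 0.599 without the cell with the most Atf3 UMIs in each condition, 0.569 without the 3 such cells and 0.404 with equal weight per cell, each past 1.5-fold. Stromal-like cells were 3.59% of OVX and 5.505% of sham cells. Being deeper, they held more of the summed UMIs, 1294160 of 7798694 in OVX and 1602909 of 6462258 in sham. The mix of cells enters these values by UMIs.
Among neutrophil-like cells, 921 from OVX and 812 from sham, 1 member was higher and 1 lower, where 9.12% and 8.2% of 6328 genes were. Fosb stood at 25.6 against 11.2 CPM (2.29-fold, 1.59 to 3.35) and Atf3 at 35.2 against 59.2 CPM (0.596-fold, 0.487 to 0.728), a ratio that was 0.478 without the cell with the most and 0.383 with equal weight per cell. Junb was at 688 against 546 CPM (1.26-fold), Egr1 at 137 against 109 CPM (1.25-fold), Fos at 116 against 138 CPM (0.841-fold) and Jun at 378.5 against 442 CPM (0.856-fold). Fosl2, Jund and Ier2 had ratios of 0.970, 0.999 and 1.004, with intervals spanning 1. The median log2 ratio of the members was -0.0019, beside -0.046 over all genes compared. With equal weight per cell the Fos ratio turned to 1.034 and the Junb ratio fell to 1.103. Egr1, at 1.278, and Jun, at 0.827, kept their direction. Without the Gm42418-led cells, described above, the log2 ratio of Junb was 0.1835 in place of 0.3352. Over 12 alternatives the log2 ratio of Egr1 lay between 0.08714 and 0.4481. The largest cluster was Stfa2 among OVX cells and Retnlg among sham cells, so values within clusters follow.

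Atf3 had the lowest ratio of OVX to sham in any cluster among the members compared. In the Jaml cluster it stood at 29.2 CPM in OVX (35 UMIs in 329 cells) and 122 CPM in sham (88 UMIs in 271 cells), a ratio of 0.239 (0.157 to 0.358). No cell held more than 3 of the OVX or 5 of the sham UMIs, and leaving out the 3 cells with the most gave 0.221. After thinning, 3.87% of 310 OVX cells and 10.4% of 240 sham cells held an Atf3 UMI. Dcn, far more abundant than Atf3 in stromal-like cells, had a UMI in 10.4% of all Jaml cells, which sets no floor for Atf3. Neither Atf3 share is read here as a share of expressing cells. Over 5 stromal genes the Jaml cluster held a median of 0.663% of the stromal-like level, while stromal-like cells held Atf3 at 31.6 CPM. Over 9 alternatives, which include 4 other clusterings, the log2 ratio lay between -2.27 and -1.34.
In the Retnlg cluster Atf3 was at 27.5 against 44.1 CPM, 0.625-fold (0.424 to 0.904), the 1 member called lower there, where 11.8% of 4687 genes were, and with equal weight per cell the ratio was 0.681, which ended the call. In the Stfa2 cluster it stood at 41.7 against 27.5 CPM, with 46 of the 119 OVX UMIs in 1 cell and 6 UMIs in sham.
The same Jaml cells also differed in AP-1 target and chemokine genes. Of 8 AP-1 targets 3 were lower in OVX and 0 higher, among them Spp1, osteopontin, at 460 against 1436 CPM (0.320-fold) and Hmox1, haem oxygenase, at 1308 against 3114 CPM (0.420-fold), and of 12 NF-kB early genes 5 were lower, among them Ccl3 (0.605-fold) and Ccl4 (0.597-fold). Of 9 feedback genes there 2 were higher and 2 lower: Zfp36l1 stood at 1118 against 286 CPM and Spred1 at 43.4 against 12.5 CPM, while Dusp1, a phosphatase that switches off MAP kinases, stood at 289 against 481 CPM. Over 3403 genes compared in that cluster, 14.1% were higher and 8.32% lower in OVX. The 28 macrophage markers gave a summed level of 1607 CPM (OVX) against 2442 CPM (sham) there, with C1qa at 0. Spp1 is among them, and its gap, 460 against 1436 CPM, is wider than that of the whole sum. Without Spp1 the sum was thus not lower in OVX, and the part of these markers in the result was not tested.

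Fosb, the rarest FOS family gene among the members, was higher in OVX in the Retnlg and Stfa2 clusters. It stood at 25.5 against 8.65 CPM in the Retnlg cluster (37 and 22 UMIs, 2.94-fold, 1.69 to 5.24), where 5.33% of genes were higher. In the Stfa2 cluster there were 74 UMIs in 366 OVX cells and 0 in 58 sham cells. Set against 3 counts in that sham sum, a one-sided limit, this was at least 1.88-fold higher, and the 2-sided exact interval of the ratio began lower, at 1.495. Median depth was 1599 UMIs in those sham cells and 6116 in the OVX cells, and 41 of the 58 belonged to the Gm42418-led group. The part of depth and RNA quality in this Fosb difference was not tested. Cycling-like cells gave 19 UMIs in OVX and 3 in sham. In the Jaml cluster the values were 25.0 and 23.6 CPM, a ratio of 1.06 (0.567 to 2.05), and whether clusters differ in this ratio was not tested.

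Ier2 was the 1 member called higher in OVX in the Jaml cluster, where 14.1% of 3403 genes were. It stood at 145 against 81.8 CPM (1.78-fold, 1.31 to 2.43), a call that ended with 1000 variable genes, where the log2 ratio was 0.23. In the Retnlg cluster it stood at 115 against 121.5 CPM (0.945-fold). Jun was lower in the Jaml cluster, at 579 against 779 CPM (0.743-fold, 0.664 to 0.832), and Junb and Egr1 were level there, at 934 against 934.5 CPM and 213 against 209 CPM.
Cycling-like cells had 3 of 7 members called higher and 0 lower, where 5.99% and 9.65% of 3004 genes were. Junb stood at 334 CPM in 64 OVX cells and 152 in 53 sham cells (2.19-fold, 1.73 to 2.79), Egr1 at 86.6 against 34.3 CPM (2.52-fold, 1.54 to 4.26) and Ier2 at 139 against 92.5 CPM, a ratio on the threshold itself at 1.5-fold (1.08 to 2.09). With equal weight per cell, the Junb ratio was 1.47, which ended its call.
The Stfa2 cluster had 58 sham cells with a median of 1599 UMIs, beside 366 OVX cells with 6116, and 41 of the 58 belonged to the Gm42418-led group, as did 131 of the 366. Gm42418 stood at 116213 CPM in those sham cells and 52515 CPM in the OVX cells. Beside these values, Egr1 was at 128 CPM in OVX against 27.5 in sham (364 and 6 UMIs), Fosl2 at 213 against 119 CPM, Jund at 254 against 385 CPM and Junb at 677 against 486 CPM. The part of RNA quality in these 4 ratios was not tested.

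**Figure D3:**
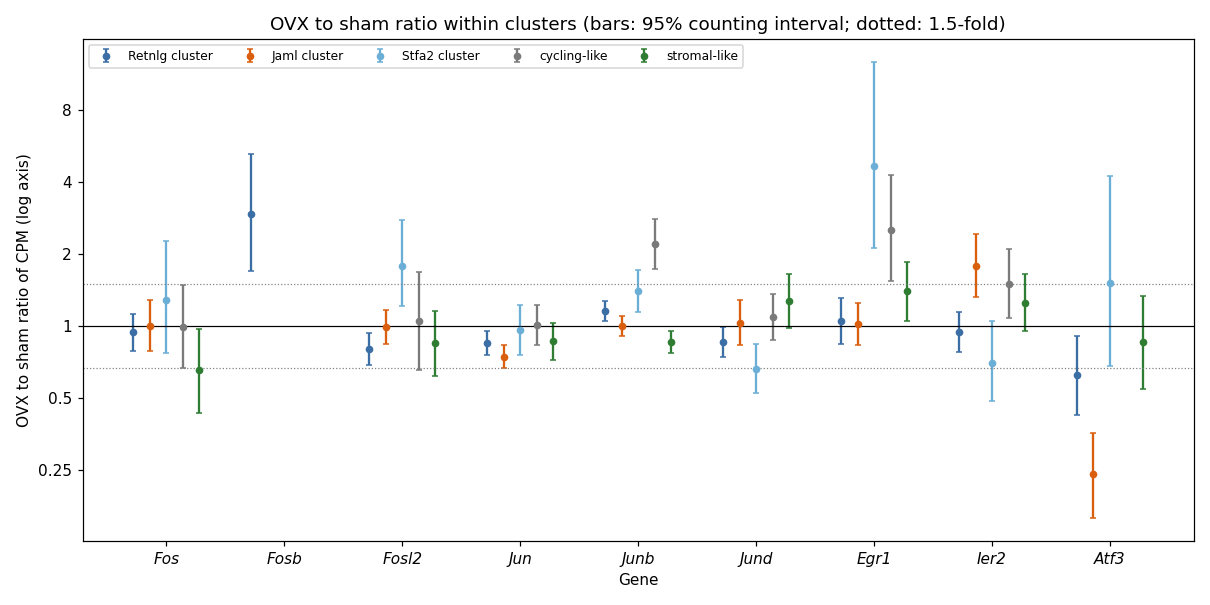
OVX to sham ratio of CPM for 9 genes within 5 cell clusters (vertical log axis; the small mixed cluster is not drawn), shown where a gene had 50 UMIs or more over both conditions and UMIs in both, with bars for the 95% counting interval and dotted lines at 1.5-fold either way. Atf3 in the Jaml cluster is the lowest point at 0.239, and Fosb in the Retnlg cluster, Egr1 in the Stfa2 and cycling-like clusters and Junb in cycling-like cells lie above 2.

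**Figure D4:**
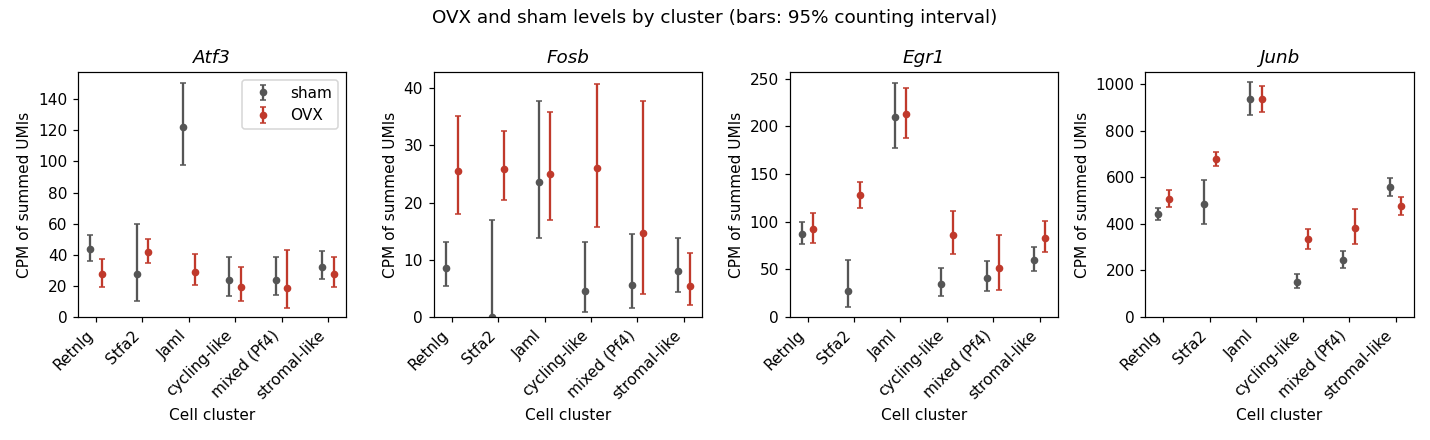
Level of Atf3, Fosb, Egr1 and Junb in OVX (red) and sham (grey) cells of 6 clusters, as CPM of summed UMIs, with bars for the 95% counting interval. Atf3 stood at 122 in sham and 29.2 in OVX cells of the Jaml cluster, while Egr1 and Junb were level between conditions there.

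In stromal-like cells, 38 from OVX and 54 from sham, 1 of 8 members was called lower and 0 higher, where 8.38% and 5.33% of 6111 genes were. Fos stood at 30.9 against 47.4 CPM (0.652-fold, 0.433 to 0.968). This call ended without the 3 cells with the most Fos UMIs, at 0.731-fold, and after thinning, at a log2 ratio of -0.078. Junb was at 477 against 557 CPM (0.856-fold, 0.771 to 0.949), with 98 UMIs in 1 OVX cell. Egr1 was at 83.5 against 59.9 CPM (1.39-fold, 1.05 to 1.85), and with equal weight per cell its ratio was 0.892. A further 111 stromal-like cells carried neither hashtag, more than either condition, and in them Fos stood at 66.1 CPM (56.2 to 77.2) and Junb at 516 CPM (488 to 546). In the mixed Pf4 cells, 36 from OVX and 62 from sham, Jun was at 287 against 187 CPM and Junb at 383 against 246 CPM, and leaving out the 3 cells with the most UMIs brought the ratios from 1.54 to 1.11 for Jun and from 1.56 to 1.15 for Junb.

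Genes that respond to heat and handling are given beside the members. Of 15 heat shock genes, 13 were lower in OVX over all cells, with a median log2 ratio of -0.98, where 23.9% of all genes compared were lower. All 15 were higher in stromal-like than in neutrophil-like cells. Stromal-like cells were a smaller share of the OVX cells, and the part of this mix was not tested. Within stromal-like cells 6 of 15 were lower, where 8.38% of 6111 genes were. Those lower include Cryab, a small heat shock protein of matrix cells, at 131 against 837 CPM and Hspa1a at 64.9 against 320 CPM. Within neutrophil-like cells 3 of 12 were lower and 0 higher, where 8.2% and 9.12% of 6328 genes were. The lower genes include Hspa5, the chaperone of the endoplasmic reticulum, at 436 against 683 CPM. Hspa8 lay the other way, at 292 against 211 CPM, a ratio of 1.38 that was not called.
Of 17 other immediate early genes in neutrophil-like cells 2 were higher and 0 lower, Klf2 at 188 against 117 CPM and Egr3 at 22.5 against 11.5 CPM. Of 10 feedback genes 2 were higher and 1 lower, with Zfp36l1, an mRNA decay factor, at 829 against 333 CPM (2.49-fold) and Spred1, an inhibitor of RAS signalling, at 34.0 against 13.5 CPM (2.52-fold). Of 15 upstream genes 1 was higher, Elk3 at 38.5 against 24.7 CPM, and 0 lower, and of 7 other bZIP partners none differed by 1.5-fold, with Cebpb, a regulator of neutrophil maturation, at 1606 against 1405 CPM. Of 14 NF-kB early genes 1 was higher and 0 lower, and of 9 AP-1 targets 3 were lower, Plaur, Hmox1 and Spp1, at 0.579-fold, 0.607-fold and 0.610-fold.
In stromal-like cells 4 of 8 NF-kB early genes were lower in OVX, including Ccl2 at 175 against 2423 CPM, while the AP-1 target Mmp13, a collagenase, was at 1071 against 169 CPM. The mitochondrial share of UMIs in neutrophil-like cells was 0.640% in OVX and 0.397% in sham, with Malat1 at 38890 and 29524 CPM, and the part of these differences in the ratios was not tested.

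**Figure D5:**
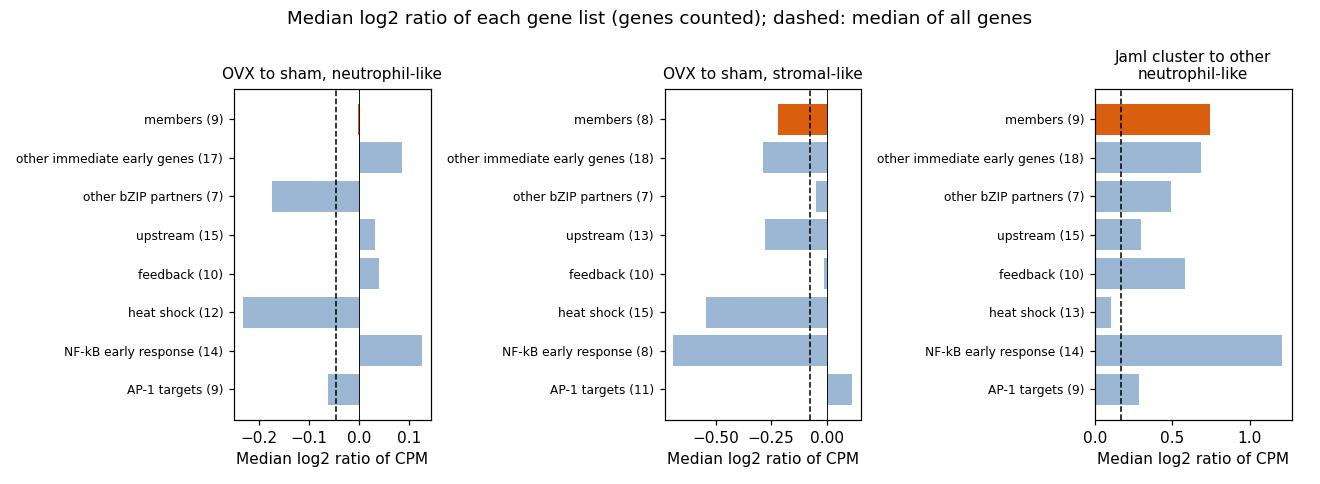
Median log2 ratio of CPM for the 10 transcription factors (orange) and 7 other fixed gene lists (blue), with the number of genes compared in brackets and the median of all genes as a dashed line, for OVX to sham in neutrophil-like and stromal-like cells and for the Jaml cluster to the other neutrophil-like cells. The transcription factors sit near 0 between conditions in neutrophil-like cells and at 0.74 in the Jaml cluster.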

How the data were processed

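The authors hashed cells of pooled mice, made 1 library of 3′ ends and, per the labels, aligned it to mm10 with Cell Ranger 6.0.1, while the deposited file's header gives 6.0.0. The deposited values are raw UMI counts per gene and barcode, with both hashtags as rows of the same matrix. Here barcodes were assigned by HTODemux (Seurat 5.3.0, quantile 0.99) on the hashtag counts. Cells were clustered with scanpy 1.11.5 (2000 variable genes without the 116 genes of the lists, 30 components, 15 neighbours, 6 clusters by Louvain), and no barcode was removed. Clusters were named by single leading genes. Dcn, Mki67, Arg1, Stfa2 and Jaml in turn each picked the cluster with its highest CPM, and the cluster left over was called Retnlg. UMIs were summed per cluster and condition and scaled to 1000000 (CPM), with exact Poisson intervals for levels and exact binomial intervals for ratios. Genes with fewer than 50 UMIs over both groups were not compared, and a gene was called at 1.5-fold. With 1 pool per condition no test was run. For shares of cells, each cell was thinned to 1000 UMIs, which left out 171 barcodes. The ratio procedure was tested on simulated data.

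Scrublet marked 1 barcode as a doublet. It was left in, as were 78 barcodes with both hashtags, outside comparisons. Alternatives were another hashtag rule (80% of at least 10 hashtag UMIs), a barcode filter (500 genes, 10% mitochondrial, removing 185), doublets removed, equal weight per cell, thinning, a minimum of 200 UMIs, a fold of 2 and 4 other clusterings. The 8-cluster split, the group without Gm42418-led cells and ratios without the single highest cell were chosen after seeing the data.

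The 10 genes and the gene lists were chosen with earlier results of these data known. Genes named from each list were drawn from its 3 genes with the most UMIs and the 2 with the largest ratios either way. Not all of these are named, and those named were mostly genes that differed by 1.5-fold or more. Dusp5, Dusp6, Dusp1 and Klf2 in the Gm42418-led group were chosen after their values were seen. Jun, Junb, Jund and Atf3 overlap genes on the other strand in GENCODE M21, and Cell Ranger counts by strand.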

Additional observations from a re-analysis of the deposited data

Results flagged for a closer look

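For 3 of the 10 genes the OVX to sham ratio lay above 1 in some cell clusters and below 1 in others, with counting intervals that excluded 1 on both sides. The differences between clusters were not tested, since each condition was 1 pool. Fosl2 stood at 1.79 in the Stfa2 cluster and at 0.802 in the Retnlg cluster. The Stfa2 value rested on 26 sham UMIs in 58 cells with a median depth of 1599 UMIs. With equal weight per cell the Fosl2 ratios were 1.54 and 0.876. Jun stood at 1.54 in the mixed Pf4 cells, at 0.850 in the Retnlg cluster and at 0.743 in the Jaml cluster. Junb stood at 2.19 in cycling-like cells, 1.56 in the mixed Pf4 cells, 1.39 in the Stfa2 cluster and 1.15 in the Retnlg cluster, and at 0.856 in stromal-like cells. With the 3 cells richest in the gene left out, the mixed Pf4 values fell to 1.11 for Jun and 1.15 for Junb, and with equal weight per cell the Junb values were 0.839 in the Stfa2 cluster and 0.962 in the Retnlg cluster.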

How the results depend on the processing

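No paired analysis was possible because each condition was 1 pool. The median log2 ratio of OVX to sham over the members, 0.18 in all cells, was 0.32 under the other hashtag rule and 0.0097 after thinning. In stromal-like cells it was -0.22, and 0.32 with a minimum of 200 UMIs, which leaves 5 members. The median of stromal-like to neutrophil-like cells, -1.21, was -1.55 with equal weight per cell. Members called lower over all cells numbered 1 in place of 0 with equal weight per cell and after thinning. Members called higher numbered 2 in place of 1 under the other hashtag rule. In neutrophil-like cells 0 in place of 1 were lower at a fold of 2, and 0 in place of 1 higher with a minimum of 200 UMIs. Causes were not tested. Of 405 recomputed OVX to sham ratios of single members, 360 kept their sign and 0 of those called turned direction. Part of this tally could hardly change, so the 360 are not all separate checks. Leaving out doublets removed 1 barcode. A cluster of 209 cells, the size of the stromal-like cluster, recurred under other clusterings, such as those with 1000 variable genes or 30 neighbours. Jaml cluster ratios kept their sign in 72 of 78. Atf3 in neutrophil-like cells lay between -1.38 and -0.68 on the log2 scale and Fosb between 0.86 and 1.30 over 12 alternatives each. Without the Gm42418-led cells, a choice made after seeing the data, Jund in neutrophil-like cells was at -0.28 in place of -0.0019. Egr1 in stromal-like cells ranged from -0.72 to 0.70, and clustering with 1000 variable genes took Ier2 in the Jaml cluster from 0.83 to 0.23. With equal weight per cell Atf3 over all cells was at -1.31 in place of -0.50, past the fold. Calls that ended include Ier2 in that clustering, Fos in stromal-like cells after thinning (-0.078), and Atf3 in the Retnlg cluster with equal weight per cell (-0.55). Junb in cycling-like cells, at 1.47-fold with equal weight per cell, was another. With 1000 variable genes, none of the 5 members called higher in the Jaml cluster than in the other neutrophil-like cells reached 1.5-fold. Depth limits Nr4a1, Fosb and Atf3 most.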
